A study of Mus musculus with 28 samples.

Results

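Cholesterol is built from acetyl-CoA through the mevalonate pathway, and 7 enzymes of that route are described here: Hmgcs1, Idi1, Fdps, Sqle, Lss, Cyp51 and Dhcr7. They were found by symbol among 23015 distinct rows of a deposited FPKM table (fragments scaled to transcript length and to the mapped fragments of the library), each on 1 row, and all 7 entered the test of 15052 genes. The table covers 28 libraries, 2 from each of 14 cell populations sorted at postnatal day 5 from the back skin of mice, an age at which hair follicles grow. Nothing in the labels says that the 2 libraries of a population came from separate animals, so every spread below is the spread between those libraries, which may be technical.

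The early enzymes turn acetyl-CoA into isoprenoid units by way of mevalonate. Squalene is then made, oxidised, closed into the sterol ring as lanosterol and trimmed to cholesterol by demethylation and reduction of double bonds. When membrane sterol is low, the transcription factor SREBP2 (gene Srebf2) leaves the endoplasmic reticulum and switches these genes on, and Insig1 holds it back when sterol is plentiful. In skin, cholesterol goes into the membranes of dividing cells and into the lipid barrier of the cornified layer, and the last precursor that Dhcr7 reduces, 7-dehydrocholesterol, is also the source of vitamin D made in sunlight.

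All mice were of a mixed FVB/N, C57BI/6J and CD1 background, and all but the pair of stem cell populations are labelled with the Lef1-RFP genotype. The K14-H2BGFP line gave 8 populations. Epi is the K14-H2BGFP+ fraction of an epidermal preparation, while the other 7 came from dermal preparations. Of these, ORS (outer root sheath) is the K14-H2BGFPHi fraction, Mx (matrix progenitors) the K14-H2BGFPLo fraction, and TAC (labelled as matrix progenitors that express Shh) the K14-H2BGFPLo/Lef1-RFP+ fraction. Mc (melanocytes) is Lef1-RFP+/CD117+, DF (dermal fibroblasts) Lef1-RFP+/CD117-/ITGA9-, DP (dermal papilla) Lef1-RFP+/ITGA9Hi, and Neg a mixture of negative cells. The Sox2-GFP line gave ZZ-DP (Sox2-GFP-, papillae of zig-zag hairs) and G/AA-DP (Sox2-GFP+, those of guard and awl/auchene hairs), and the Crabp1-GFP line gave G-DP (guard hairs, Crabp1-GFP-) and AA/ZZ-DP (awl/auchene and zig-zag hairs, Crabp1-GFP+), all within the Lef1-RFP+/ITGA9Hi gate. HF-SC (Sox9-GFP+, bulge stem cell precursors) and HF-ORS (Sox9-GFP-, labelled as what remains of the ORS) were both K14-RFPHi/ITGA6Hi. The reporters follow a keratinocyte promoter (K14) or the genes Sox2, Crabp1, Sox9 and Lef1, so each population is a sorting gate and may hold more than one cell type.

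The libraries had FPKM sums of 285981 to 515224 and 10951 to 12497 genes at 1 FPKM or more, and the 2 libraries of a population correlated across genes at r = 0.88 to 0.97. Read depth is unknown, because whole reads could not be recovered from the FPKM values. Most gates carried their own markers, with departures that touch results below. Summed over 4 suprabasal epidermis genes, HF-ORS had 1796 to 2874 FPKM against 6.81 to 17.8 in ORS, and the suprabasal keratin gene Krt1 was at 1481 and 1024 FPKM in the 2 HF-ORS libraries. The 6 melanocyte genes summed to 1252 to 1298 FPKM in DF, 844 to 965 in G-DP and 27.8 to 702 in ZZ-DP, against 48.4 to 63.6 in AA/ZZ-DP and 55.4 to 101 in G/AA-DP. The matrix gene Shh was at 50.1 and 7.99 FPKM in the 2 DF libraries. Sox2 was listed at 0 and at 4.81 FPKM in the Sox2-GFP+ libraries and at 4.87 and 0.0891 in the Sox2-GFP- libraries, so replicate 1 of each went against its gate.

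Promoter sequences are shown because 6 of the 7 genes had similar patterns over the populations and Dhcr7 did not, and because the sterol response of such genes is known to run through short elements near the start site. Of the 7 genes, 5 had a window of 300 bases in the RefSeq promoter table (GRCm38.p6), from 250 bases before the start site to 50 after it, while Sqle and Fdps had none. Capitals mark a sterol regulatory element (TCACNCCAC, or the looser TCACNNCA, which every match of the first also meets) or a CCAAT box, searched on both strands, so that ATTGG is a CCAAT box on the opposite strand. The windows were chr13:119690101-119690400 (plus strand) for Hmgcs1, chr13:8885356-8885655 (plus) for Idi1, chr10:76531355-76531654 (plus) for Lss, chr5:4104648-4104947 (minus) for Cyp51 and chr7:143829964-143830263 (plus) for the third of 3 Dhcr7 start sites.
Hmgcs1: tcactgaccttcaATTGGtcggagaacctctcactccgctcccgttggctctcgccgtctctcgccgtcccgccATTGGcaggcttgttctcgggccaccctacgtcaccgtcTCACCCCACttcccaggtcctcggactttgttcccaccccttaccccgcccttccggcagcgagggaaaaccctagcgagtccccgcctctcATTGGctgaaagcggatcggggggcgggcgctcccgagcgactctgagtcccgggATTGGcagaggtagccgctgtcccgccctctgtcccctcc
Idi1: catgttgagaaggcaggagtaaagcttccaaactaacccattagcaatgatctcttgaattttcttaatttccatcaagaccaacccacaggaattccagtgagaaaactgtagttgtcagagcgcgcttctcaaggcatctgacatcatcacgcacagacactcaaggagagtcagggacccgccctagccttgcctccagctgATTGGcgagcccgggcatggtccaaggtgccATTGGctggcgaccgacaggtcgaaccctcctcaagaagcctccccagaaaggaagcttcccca
Lss: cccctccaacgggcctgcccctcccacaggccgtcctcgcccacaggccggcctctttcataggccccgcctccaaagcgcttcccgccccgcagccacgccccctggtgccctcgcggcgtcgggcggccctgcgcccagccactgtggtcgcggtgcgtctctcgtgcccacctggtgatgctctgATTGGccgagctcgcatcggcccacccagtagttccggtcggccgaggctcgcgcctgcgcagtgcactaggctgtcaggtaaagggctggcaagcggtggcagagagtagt
Cyp51: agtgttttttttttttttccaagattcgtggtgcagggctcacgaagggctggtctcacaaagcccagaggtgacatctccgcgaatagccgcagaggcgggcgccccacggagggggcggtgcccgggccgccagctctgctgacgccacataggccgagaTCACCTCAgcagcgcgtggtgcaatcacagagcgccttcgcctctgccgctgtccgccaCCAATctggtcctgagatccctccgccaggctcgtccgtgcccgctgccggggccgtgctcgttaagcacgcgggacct
Dhcr7: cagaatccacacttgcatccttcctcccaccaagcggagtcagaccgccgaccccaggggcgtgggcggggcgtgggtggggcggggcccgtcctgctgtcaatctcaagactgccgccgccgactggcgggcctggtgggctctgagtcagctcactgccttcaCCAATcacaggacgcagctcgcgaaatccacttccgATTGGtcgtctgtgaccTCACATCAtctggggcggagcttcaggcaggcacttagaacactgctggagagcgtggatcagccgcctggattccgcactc

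Hmgcs1 was the member with the strict sterol element, TCACCCCAC at base -137 from its start site, a pattern held by 1.24% of the 32851 windows in the table. Cyp51 held the looser form as TCACCTCA at base -88, and Dhcr7 held it as TCACATCA at -32 before the start site at 143830214 and as TCACTTCA at -130 before the site at 143823399. The looser form occurs in 13.8% of all windows. The windows of Idi1 and Lss held neither form, and Sqle and Fdps had no window to search. Whether such elements go with the split between Dhcr7 and the other genes was not tested. A CCAAT box lay in the windows of Hmgcs1 (4), Idi1 (2), Lss (1), Cyp51 (1) and the third Dhcr7 site (2), against 37.4% of all windows with at least 1, and the Sp1 box GGGCGG, not capitalised, was in the windows of Hmgcs1, Idi1, Lss and Cyp51 and in 2 of the 3 Dhcr7 windows, against 35.7% of all windows. The Dhcr7 window at 143823167 had neither a sterol element nor a CCAAT box. These are letter matches only, and the files hold no binding data.

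Summed over the 7 genes, the level was highest in the hair matrix, at 521 ± 47.4 FPKM in TAC and 455 ± 6.11 in Mx (mean ± SD, n = 2 libraries here and for every level below). DP followed at 372 ± 84.3 and Mc at 371 ± 55.1. Neg had 292 ± 67.8, ORS 266 ± 31.7, G/AA-DP 253 ± 64.7, DF 253 ± 63.2 and ZZ-DP 242 ± 23.1. At the low end were G-DP at 217 ± 12.2, HF-SC at 213 ± 32.2, HF-ORS at 204 ± 64.6, AA/ZZ-DP at 187 ± 23.2 and Epi at 179 ± 15.8. Neither TAC library overlapped any library of another population in this sum, and neither did either Mx library. The lead of TAC over Mx rests largely on Hmgcs1, at 174 ± 49.0 FPKM in TAC against 106 ± 10.8 in Mx. Lss, Cyp51 and Sqle also had higher means in TAC than in Mx, whereas Fdps, Idi1 and Dhcr7 had lower ones. By mean, every population of the Sox2-GFP, Crabp1-GFP and K14-RFP Sox9-GFP lines lay below ORS in this sum. So did DF and Epi of the K14-H2BGFP line. Mouse line and cell type cannot be told apart where populations of different lines are compared, here and in the orders below. In bulk libraries of sorted cells, fewer cells of a type and less RNA per cell cannot be told apart.

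**Figure D1:**
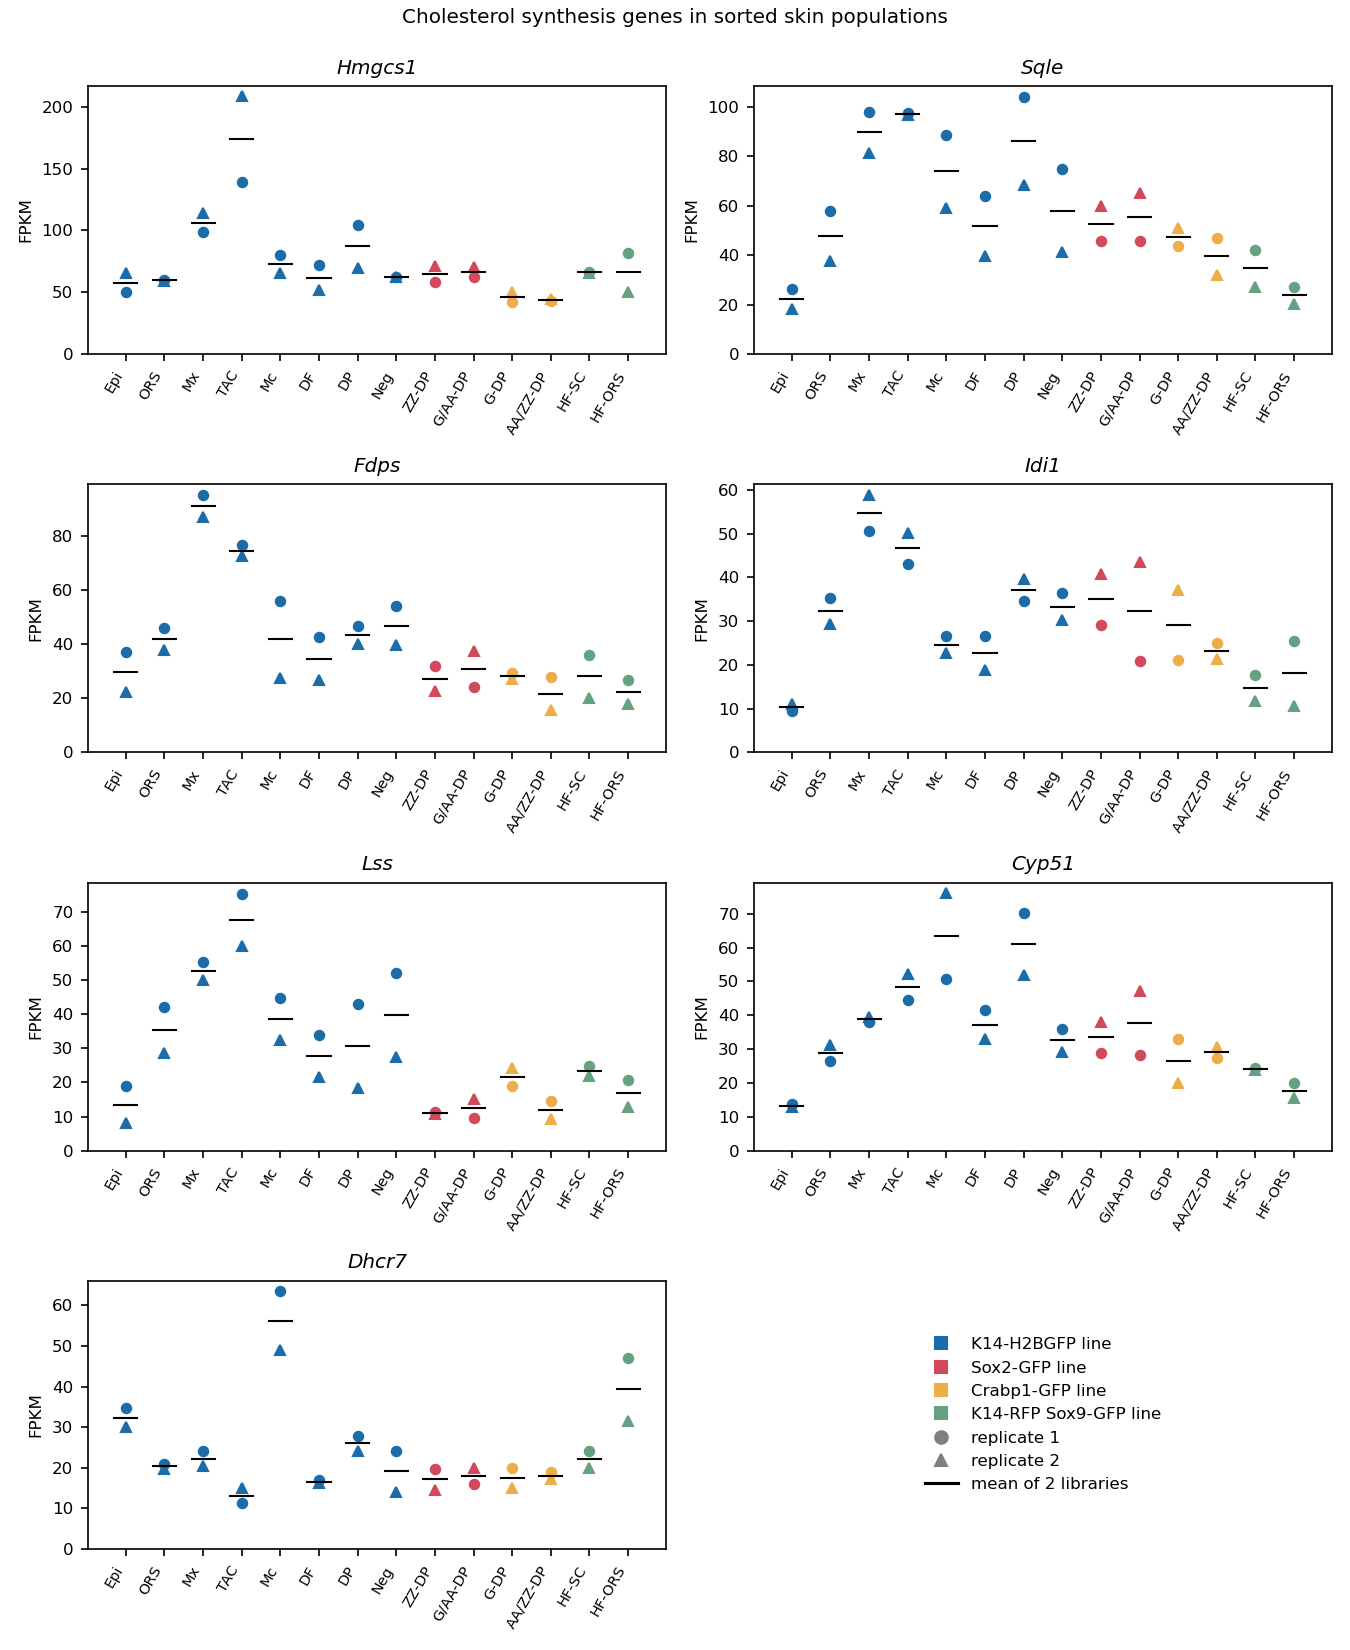
FPKM (vertical axes, from 0) of each of the 7 genes in the 14 populations (horizontal axes); circles are replicate 1, triangles replicate 2, black lines the means of 2 libraries, and colours the mouse line. The 2 TAC libraries stand above all others for Hmgcs1, the 2 Mx libraries above all others for Fdps and Idi1, and Dhcr7 is highest in Mc and lowest in TAC.

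Hmgcs1 lies on chromosome 13 (119690351 to 119708260, plus strand, GRCm38.p6) and encodes the cytosolic HMG-CoA synthase, an early enzyme of the mevalonate route. It was the most abundant member in TAC, at 139 and 208 FPKM in the 2 libraries. Mx had 98.6 and 114 and DP 104 and 69.6. TAC stood clear of Mx, whereas Mx and DP overlapped. Mc had 72.7 ± 10.2 FPKM, HF-SC 66.3 ± 0.606, G/AA-DP 66.3 ± 5.31, HF-ORS 65.99 ± 22.8 and ZZ-DP 65.0 ± 9.19. Next came Neg with 62.2 ± 0.0875 FPKM, DF with 61.8 ± 14.3, ORS with 59.7 ± 0.541 and Epi with 57.7 ± 10.9, and last the G-DP and AA/ZZ-DP papillae with 46.2 ± 5.92 and 43.6 ± 1.04. Apart from the TAC step, each of the other 12 neighbouring pairs in this order overlapped, and the means spanned 3.98-fold. The antisense model Gm48342 overlaps the gene over 6190 bases in GENCODE M21, and reads of an antisense pair cannot be told apart unless strand was used in counting, which is not given in the sources used here.

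Idi1 (chromosome 13, 8885606 to 8892396, plus strand) encodes the isomerase that sets the balance of the isoprenoid units, and its order was led by Mx with 50.6 and 58.8 FPKM. TAC had 43.1 and 50.2 and DP 34.6 and 39.6. Epi was the lowest population, at 9.52 and 11.1, below every library of every other population except 1 of HF-ORS. Between these lay ZZ-DP at 35.0 ± 8.28, Neg at 33.3 ± 4.39, ORS at 32.4 ± 4.13, G/AA-DP at 32.2 ± 16.0, G-DP at 29.1 ± 11.3 and Mc at 24.6 ± 2.85. Below these, AA/ZZ-DP had 23.2 ± 2.68, DF 22.8 ± 5.46, HF-ORS 18.0 ± 10.6 and HF-SC 14.7 ± 4.22. The neighbours Mx and TAC, TAC and DP, and HF-SC and Epi did not overlap, and the other 10 pairs did. The 2 HF-ORS libraries differed 2.43-fold, the widest gap between replicates of this gene.

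Fdps (chromosome 3, 89093588 to 89101967, minus strand) joins these units into farnesyl diphosphate, which feeds sterols and also prenylated proteins. Mx had 94.97 and 86.7 FPKM and TAC 76.6 and 72.3. Neither overlapped the next population, Neg, at 54.0 and 39.6. The others lay in a band from DP with 43.3 ± 4.87, ORS with 41.8 ± 5.73, Mc with 41.7 ± 20.0 and DF with 34.6 ± 11.3 down to G/AA-DP with 30.7 ± 9.46, Epi with 29.7 ± 10.4 and G-DP with 28.2 ± 1.495. HF-SC had 28.1 ± 11.3, ZZ-DP 27.2 ± 6.47, HF-ORS 22.3 ± 6.20 and AA/ZZ-DP 21.6 ± 8.60. Of the 13 neighbouring pairs 11 overlapped, so below the matrix populations the order is not resolved. In GENCODE M21 the gene shares 7512 bases with the same-strand model Gm43738, so its reads could be split by the authors' counting, and its level is uncertain to that extent.

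Sqle (chromosome 15, 59315092 to 59331193, plus strand) encodes squalene epoxidase, which carries out the first step of sterol synthesis that needs oxygen. TAC had 97.6 and 96.7 FPKM, Mx 98.1 and 81.5, DP 104 and 68.2 and Mc 88.8 and 59.1. These 4 overlapped as a chain. Neg had 58.1 ± 23.9, G/AA-DP 55.5 ± 13.9, ZZ-DP 52.8 ± 9.89, DF 51.8 ± 17.1, ORS 47.7 ± 14.3 and G-DP 47.4 ± 5.38. AA/ZZ-DP had 39.5 ± 10.5, HF-SC 34.7 ± 10.6, HF-ORS 23.8 ± 5.02 and Epi, the lowest, 22.2 ± 5.77. All 13 neighbouring pairs overlapped, although the means spanned 4.38-fold from end to end.

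Lss (chromosome 10, 76531565 to 76557139, plus strand) closes squalene epoxide into lanosterol. TAC had 75.3 and 60.1 FPKM and Mx 55.3 and 50.1. TAC stood clear of Mx, which overlapped the next population, Neg, at 52.0 and 27.6. Mc had 38.7 ± 8.62, ORS 35.5 ± 9.50, DP 30.8 ± 17.4, DF 27.8 ± 8.62, HF-SC 23.3 ± 2.01 and G-DP 21.6 ± 3.81. HF-ORS had 16.8 ± 5.52, Epi 13.4 ± 7.67, G/AA-DP 12.4 ± 4.002, AA/ZZ-DP 11.9 ± 3.72 and ZZ-DP 10.998 ± 0.398. Lss had the widest span of the 7, at 6.16-fold, and also the largest median fold between replicates, at 1.51. The gene overlaps the antisense model 4930483K19Rik over 11268 bases, with the same limit as for Hmgcs1.

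Cyp51 (chromosome 5, 4080674 to 4104697, minus strand) removes a methyl group from lanosterol, and its order differed from that of the genes above. Mc had 50.9 and 76.1 FPKM and DP 70.2 and 52.0. TAC had 44.6 and 52.2 and Mx 38.0 and 39.6. Mc, DP and TAC overlapped in turn, and TAC did not overlap Mx. G/AA-DP had 37.7 ± 13.3, DF 37.2 ± 6.08, ZZ-DP 33.5 ± 6.31, Neg 32.7 ± 4.81, AA/ZZ-DP 29.1 ± 2.40 and ORS 28.7 ± 3.32. G-DP had 26.5 ± 9.21 and HF-SC 24.1 ± 0.325. The 2 lowest were HF-ORS with 20.1 and 15.4 and Epi with 13.8 and 12.8, which overlapped neither each other nor HF-SC.

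Dhcr7 (chromosome 7, 143823167 to 143848410, plus strand) carries out a last reduction, of 7-dehydrocholesterol to cholesterol, and was the member whose order was unlike the rest. Mc had 63.5 and 49.0 FPKM. HF-ORS had 47.1 and 31.4 and Epi 34.7 and 30.0. Both Mc libraries lay above every other library of this gene, HF-ORS and Epi overlapped, and TAC was the lowest population with 11.4 and 14.9. DP had 26.1 ± 2.63, Mx 22.2 ± 2.57, HF-SC 22.0 ± 3.11, ORS 20.4 ± 0.811, Neg 19.1 ± 7.13 and AA/ZZ-DP 18.0 ± 1.17. G/AA-DP had 18.0 ± 2.72, G-DP 17.5 ± 3.48, ZZ-DP 17.2 ± 3.75 and DF 16.6 ± 0.390. The means spanned 4.28-fold. So the population that led the sum of the 7 genes, TAC, was last for Dhcr7, and Epi, last for the sum, was behind only Mc and HF-ORS.

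As a description over the 14 population means of log2(FPKM + 1), the 6 genes other than Dhcr7 correlated with each other at r = 0.51 (Hmgcs1 with Cyp51) to 0.91 (Sqle with Cyp51), with a median of 0.70 over 15 pairs. The 6 pairs that include Dhcr7 ran from r = -0.45 to -0.06. The points of a population share their 2 libraries, and mouse line and cell type cannot be told apart in these r values. In the K14-H2BGFP line replicate 1 was above replicate 2 in 8 of 8 populations for Sqle, Fdps and Lss, as it was for 4.86% of all tested genes.

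Ranked by r with the mean standardised profile of the 7 genes over the 14 means, the nearest of 11186 expressed genes were Dpf2 (0.90), Gnl3l (0.88), Taco1 (0.86), Cldn10 (0.85), Taf1 (0.84), Pdcd2l (0.83), Map3k7 (0.83), Pank3 (0.83), Psme4 (0.83) and Smchd1 (0.82). None of these 10 was on a pathway list. Of the other cholesterol enzymes, Nsdhl ranked 21, Fdft1 24, Mvd 32 and Acat2 80, while Sc5d ranked 3974 and Ebp 6457.

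**Figure D2:**
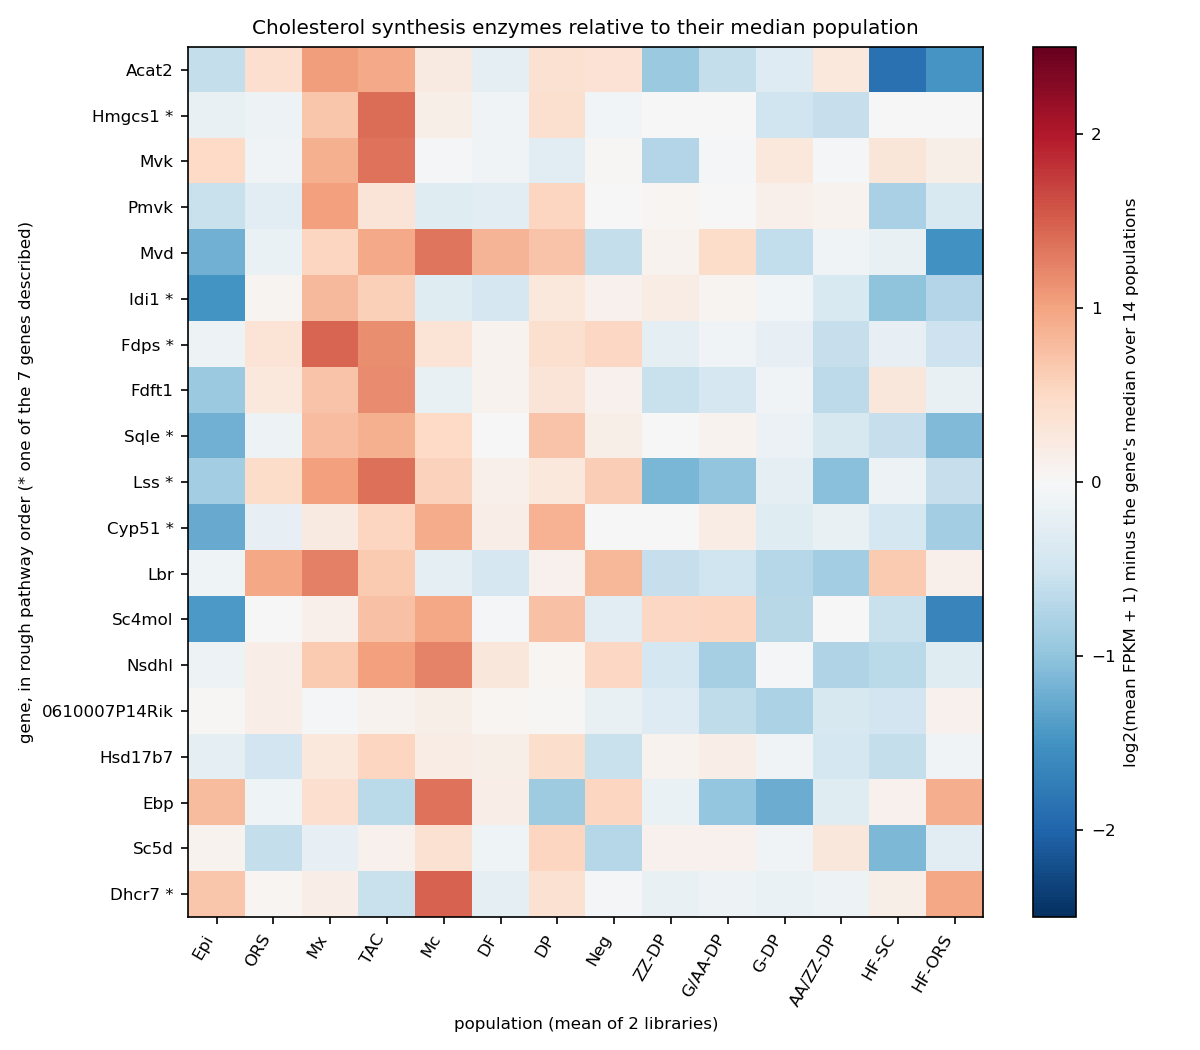
Colour gives log2(mean FPKM + 1) minus the gene's median over the 14 populations (horizontal axis) for the 7 genes (starred) and 12 other cholesterol synthesis enzymes (vertical axis, rough pathway order); each cell is the mean of 2 libraries. Mx and TAC are red for most enzymes down to Lss, Epi and HF-ORS are blue for Mvd, Idi1, Sqle and Cyp51, and Dhcr7 and Ebp are red in Epi, Mc and HF-ORS.

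Differences were tested with limma on log2(FPKM + 1), and a gene was called when its Benjamini-Hochberg adjusted p over 15052 genes was under 0.05 and its log2 change at least 1 in size; ± after a log2 change is its SE. The comparisons that share a population (Epi, ORS, Mx or DF) share its libraries and are not independent of each other. For all tested genes, the shares at an unadjusted p under 0.05 or without overlap between libraries were not computed. Counts of listed genes by these measures are therefore description only. Of 13 other cholesterol enzymes listed, 12 had a row, with Msmo1 under the older symbol Sc4mol.

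The outer root sheath was compared with the epidermis first. Of the 7 genes, 3 rose in ORS against Epi and none fell, where 9.83% of all tested genes were called. Idi1 was at 35.3 and 29.4 FPKM in ORS against 9.52 and 11.1 in Epi, a log2 change of 1.56 ± 0.37 (limma adjusted p = 0.00711). Lss was at 42.2 and 28.7 against 18.8 and 7.99 (1.42 ± 0.42, adjusted p = 0.0327), and Cyp51 at 26.4 and 31.1 against 13.8 and 12.8 (1.06 ± 0.29, adjusted p = 0.0189). The ORS libraries lay above the Epi libraries for all 3. Sqle was at 57.9 and 37.6 FPKM against 26.2 and 18.1, also without overlap, but did not pass (1.06 ± 0.35, adjusted p = 0.0625). Fdps (0.52 ± 0.37), Hmgcs1 (0.06 ± 0.27) and Dhcr7 (-0.64 ± 0.28) did not pass either, and Dhcr7 had the opposite sign. The median log2 change was 1.06 over the 7 genes and 0.01 over all tested genes. The calls are fragile: none of the 7 was called without ORS replicate 1, and 1 was called without ORS replicate 2, without Epi replicate 1 or without Epi replicate 2. Lss was also lost with no filter on low values (adjusted p = 0.0811) and Cyp51 with a pseudocount of 5 (log2 change 0.88).

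Of the other 12 cholesterol enzymes, 3 rose in ORS and none fell, with a median of 0.32. These were Fdft1, the squalene synthase, Lbr, a sterol reductase of the nuclear envelope, and Sc4mol, a sterol methyl oxidase, with log2 changes of 1.19, 1.08 and 1.43. Fdft1 was lost without ORS replicate 1 (adjusted p = 0.0824) or Epi replicate 2 (0.0556), and Lbr without ORS replicate 2 (0.0882) or Epi replicate 2 (0.0859) and, on size, with a pseudocount of 5 (log2 change 0.94), so that without Epi replicate 2 the count was 1. Insig1, a target of SREBP as well as its brake, was at 24.9 and 22.7 against 3.72 and 1.11 (2.97 ± 0.34, adjusted p = 3.92e-06). It was the 1 of 7 sterol-sensing genes that was called: Srebf2 had a log2 change of 0.60 ± 0.39 and Srebf1 of 0.08 ± 0.64, and neither passed. Of 11 fatty acid synthesis genes 7 rose, among them the desaturase genes Fads1 (29.9 ± 1.85 against 0.540 ± 0.682 FPKM) and Scd2 (59.3 ± 6.61 against 16.9 ± 6.26). Of 14 genes of sterol uptake, transport and efflux, Scarb1, Stard4 (under the size threshold with a pseudocount of 5, at 0.94) and Soat1 rose and Mylip, a ubiquitin ligase gene that responds to sterols, fell (4.15 ± 0.192 against 32.5 ± 3.53).

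Markers moved with this comparison. The summed suprabasal genes were at 5219 to 7246 FPKM in Epi and 6.81 to 17.8 in ORS, and 2 of the 4 tested fell. The 12 proliferation genes summed to 542 to 662 in Epi and 1094 to 1177 in ORS, with 12 of 12 positive and 0 called (2 at an unadjusted p under 0.05). The 10 dissociation stress genes summed to 174 to 351 and 941 to 1377, and the 10 sebocyte genes to 21.0 to 21.4 and 58.5 to 67.3. Their part in the result was not tested.

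Matrix progenitors were then set against the outer root sheath. All 7 genes had a positive log2 change in Mx, with a median of 0.74 against 0.02 over all tested genes, but limma called 0 of 7, where 3.83% of all genes were called. At an unadjusted p under 0.05 there were 3: Fdps, at 94.97 and 86.7 FPKM against 45.9 and 37.8 (1.11 ± 0.37, adjusted p = 0.128), Sqle (0.92 ± 0.35, adjusted p = 0.206) and Hmgcs1 (0.82 ± 0.27, adjusted p = 0.109). Dhcr7 overlapped between the 2 populations, and its log2 change turned to -0.00019 without Mx replicate 1. Idi1 (0.74 ± 0.37), Lss (0.58 ± 0.42), Cyp51 (0.43 ± 0.29) and Dhcr7 (0.11 ± 0.28) had smaller values. Of the other 12 enzymes, 1 rose: Pmvk, the phosphomevalonate kinase, was at 56.4 ± 1.60 against 22.5 ± 1.28 FPKM (1.29 ± 0.32, adjusted p = 0.0224), and its call was lost without any 1 of the 4 libraries (adjusted p = 0.106 to 0.186). Insig1 (0.75 ± 0.34) and Srebf2 (0.30 ± 0.39) did not pass. Mylip, which was at 19.0 ± 0.245 against 4.15 ± 0.192 FPKM, rose (1.96 ± 0.35, adjusted p = 0.00164). Lipa, the lysosomal acid lipase gene, fell, at 2.66 ± 1.26 against 9.34 ± 2.60 (-1.52 ± 0.42, adjusted p = 0.0432), and was lost without any 1 of the 4 libraries (adjusted p = 0.0792 to 0.389), with no filter (0.0941), with a pseudocount of 5 (0.183) and with quantile normalization (0.0908). These were the 2 of 14 handling genes called. Summed proliferation genes were close, at 1185 to 1287 FPKM in Mx and 1094 to 1177 in ORS, with 5 of 12 positive.

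Since the levels in Mx and Epi lay near the ends of the order for most of the 7 genes, Mx was also compared with Epi; this comparison was added after the levels had been seen, so its values describe a gap already visible. Called as higher were 5 of 7, with 11.3% of all genes called. Idi1 changed by 2.30 ± 0.37 (limma adjusted p = 0.000174), Lss by 2.01 ± 0.42 (adjusted p = 0.0023), Sqle by 1.99 ± 0.35 (adjusted p = 0.000471), Fdps by 1.62 ± 0.37 (adjusted p = 0.00539) and Cyp51 by 1.48 ± 0.29 (adjusted p = 0.00108). For these 5 both Mx libraries lay above both Epi libraries. Hmgcs1 passed the p threshold but not the size (0.88 ± 0.27, adjusted p = 0.0354), and Dhcr7 had the opposite sign and did not pass (-0.52 ± 0.28, adjusted p = 0.282). Without Epi replicate 2 the count was 3, as Fdps (adjusted p = 0.101) and Lss (0.0763) were lost. Of the other 12 enzymes 5 were higher: Acat2, Pmvk, Fdft1, Lbr and Sc4mol; Lbr was just under the size threshold without Mx replicate 2 (log2 change 0.996). Insig1 changed by 3.72 ± 0.34. The suprabasal and stress genes named above differed here too, with Mx at 9.60 to 9.74 and 821 to 1370.1 FPKM. The 12 proliferation genes summed to 1185 to 1287 in Mx and 542 to 662 in Epi, with 12 of 12 positive and 1 called, and the 10 sebocyte genes to 75.6 to 84.4 and 21.0 to 21.4. The part of these lists was not tested.

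TAC, gated for the Lef1 reporter, was compared with Mx, which was not. Limma called 0 of 7 genes, with 1.27% of all genes called and a median log2 change of 0.12 over the 7, and 2 had an unadjusted p under 0.05. Hmgcs1 was at 139 and 208 FPKM against 98.6 and 114 (0.68 ± 0.27, adjusted p = 0.345). Dhcr7 was at 11.4 and 14.9 against 24.0 and 20.4 (-0.72 ± 0.28, adjusted p = 0.324). The first and the last gene of the 7 thus had values of opposite sign without overlap, and neither passed. Lss (0.35 ± 0.42), Cyp51 (0.31 ± 0.29), Sqle (0.12 ± 0.35), Idi1 (-0.23 ± 0.37) and Fdps (-0.28 ± 0.37) lay between. None of the other 12 enzymes was called (2 at an unadjusted p under 0.05). Of the sterol handling genes 2 of 14 rose. Soat1, which stores cholesterol as its ester, was at 48.6 and 118 FPKM in TAC and 5.76 and 12.3 in Mx (3.02 ± 0.37, adjusted p = 0.000197). Abca1, a cholesterol exporter, changed by 1.53 ± 0.34 (adjusted p = 0.0256), and was lost without TAC replicate 1 (0.353), Mx replicate 1 (0.134) or Mx replicate 2 (0.213), and with quantile normalization (0.0548). The fibroblast genes summed to 167 to 206 FPKM in TAC and 11.2 to 13.05 in Mx, and the 12 proliferation genes to 776 to 851 and 1185 to 1287. Melanocyte genes summed to 163 to 259 FPKM in TAC and 26.0 to 28.3 in Mx, with 6 of 6 positive and 0 called. Stress genes summed to 1375 to 2354 in TAC and 821 to 1370 in Mx. Of 6 papilla genes 2 were called higher in TAC, with sums of 37.2 to 40.9 and 12.5 to 29.2. The part of these lists was not tested.

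**Figure D3:**
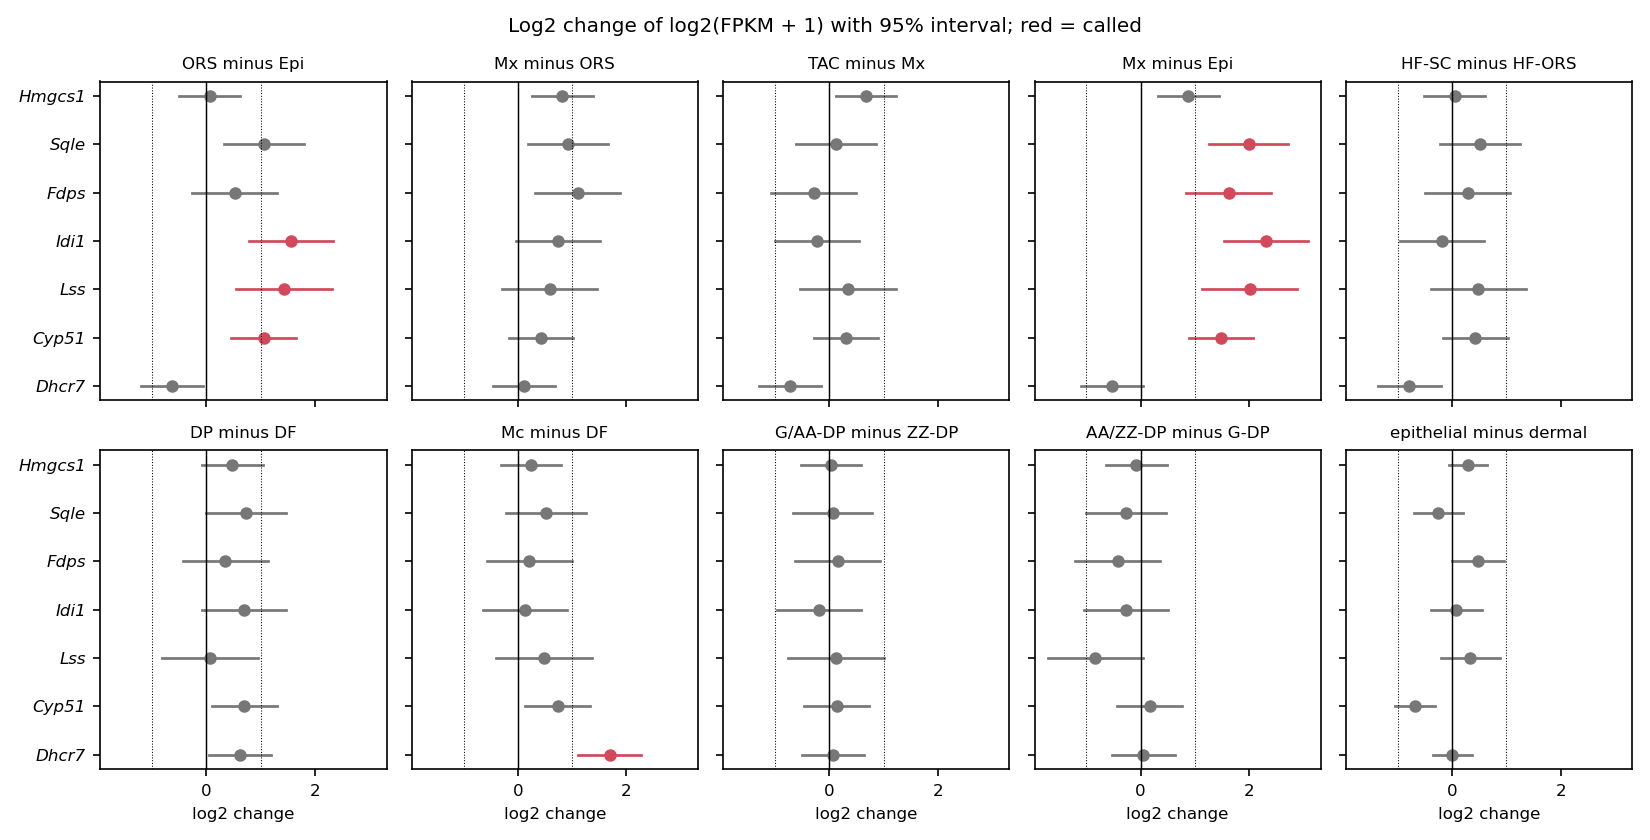
Log2 change of log2(FPKM + 1) (horizontal axes) of each of the 7 genes (vertical axes) in the 10 comparisons, with 95% intervals from limma; red marks called genes, solid lines 0 and dotted lines the size threshold of 1 in either direction. Called genes appear in ORS minus Epi (3), Mx minus Epi (5) and Mc minus DF (1, Dhcr7), and all 7 points are right of 0 in Mx minus ORS, DP minus DF and Mc minus DF, though with quantile normalization Hmgcs1, Fdps and Idi1 lie left of it in Mc minus DF.

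Within the dermis, the papilla was compared with fibroblasts. All 7 genes had a positive log2 change in DP, with a median of 0.62 against 0.01 over all tested genes, but limma called 0 of 7, where 6.69% of all genes were called. Summed over the 7 genes, DP had 372 ± 84.3 FPKM and DF 253 ± 63.2. In this sum the papilla sorts of the other lines were near DF or below it. G/AA-DP had 253 ± 64.7, ZZ-DP 242 ± 23.1, G-DP 217 ± 12.2 and AA/ZZ-DP 187 ± 23.2. The higher sum is thus not shown for papilla sorts in general. Cyp51 was at 70.2 and 52.0 FPKM in DP and 41.5 and 32.9 in DF (0.70 ± 0.29, adjusted p = 0.176). Dhcr7 was at 27.9 and 24.2 against 16.9 and 16.3 (0.62 ± 0.28, adjusted p = 0.221). These 2 had an unadjusted p under 0.05. Lss turned negative without DP replicate 1 (-0.53) or DF replicate 2 (-0.25). Sqle (0.73 ± 0.35), Idi1 (0.70 ± 0.37), Hmgcs1 (0.48 ± 0.27), Fdps (0.35 ± 0.37) and Lss (0.06 ± 0.42) did not reach it. None of the other 12 enzymes was called (3 at an unadjusted p under 0.05). Stard4, a carrier of cholesterol between membranes, rose (31.9 ± 1.003 against 11.4 ± 1.12 FPKM, 1.41 ± 0.26, adjusted p = 0.00135), as the 1 of 14 handling genes called. The melanocyte genes summed to 16.5 to 23.5 FPKM in DP against 1252 to 1298 in DF and the matrix genes to 137 to 149.9 against 152 to 496. The keratinocyte genes, with 5 of 5 called lower, summed to 48.1 to 51.1 FPKM in DP against 173 to 600 in DF. Stress genes summed to 2366 to 2932 in DP against 981 to 1461 in DF, and sebocyte genes to 190 to 377 against 70.1 to 82.9. The part of these lists was not tested.

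Melanocytes differed from fibroblasts in 1 of the 7 genes, with 18.2% of all genes called. Dhcr7 rose to 63.5 and 49.0 FPKM in Mc from 16.9 and 16.3 in DF (1.69 ± 0.28, limma adjusted p = 0.000131). This call held under each of the alternatives run, leaving out any 1 of the 4 libraries included. Cyp51 was at 50.9 and 76.1 against 41.5 and 32.9 and did not pass (0.74 ± 0.29, adjusted p = 0.0796), and Sqle (0.51 ± 0.35), Lss (0.48 ± 0.42), Hmgcs1 (0.24 ± 0.27), Fdps (0.21 ± 0.37) and Idi1 (0.12 ± 0.37) had smaller values. The median over the 7 was 0.48, against 0.02 over all tested genes. With quantile normalization Hmgcs1 (-0.098), Fdps (-0.059) and Idi1 (-0.045) were negative, as was Fdps without Mc replicate 1 (-0.28) or DF replicate 2 (-0.11) and Idi1 without DF replicate 2 (-0.11). None of the other 12 enzymes was called (3 at an unadjusted p under 0.05). The nearest was Sc4mol, at 45.1 and 55.8 FPKM against 23.3 and 26.1, just under the size threshold (0.995, adjusted p = 0.0152). The count was 1 without Mc replicate 1 or DF replicate 2 (Sc4mol) and without DF replicate 1 (Nsdhl). Insig1 rose from 51.7 and 34.7 to 136 and 108 (1.49 ± 0.34, adjusted p = 0.00333), its call lost without DF replicate 2 (0.0573), and Npc1 and Npc2, whose products release cholesterol from lysosomes, rose with 2 others of the 14 handling genes (91.7 ± 15.7 against 31.9 ± 6.17 and 94.7 ± 16.8 against 19.7 ± 2.25 FPKM). The melanocyte genes summed to 11946 to 15266 FPKM in Mc and 1252 to 1298 in DF, and the part of melanocyte RNA in the DF values was not tested.

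**Figure D4:**
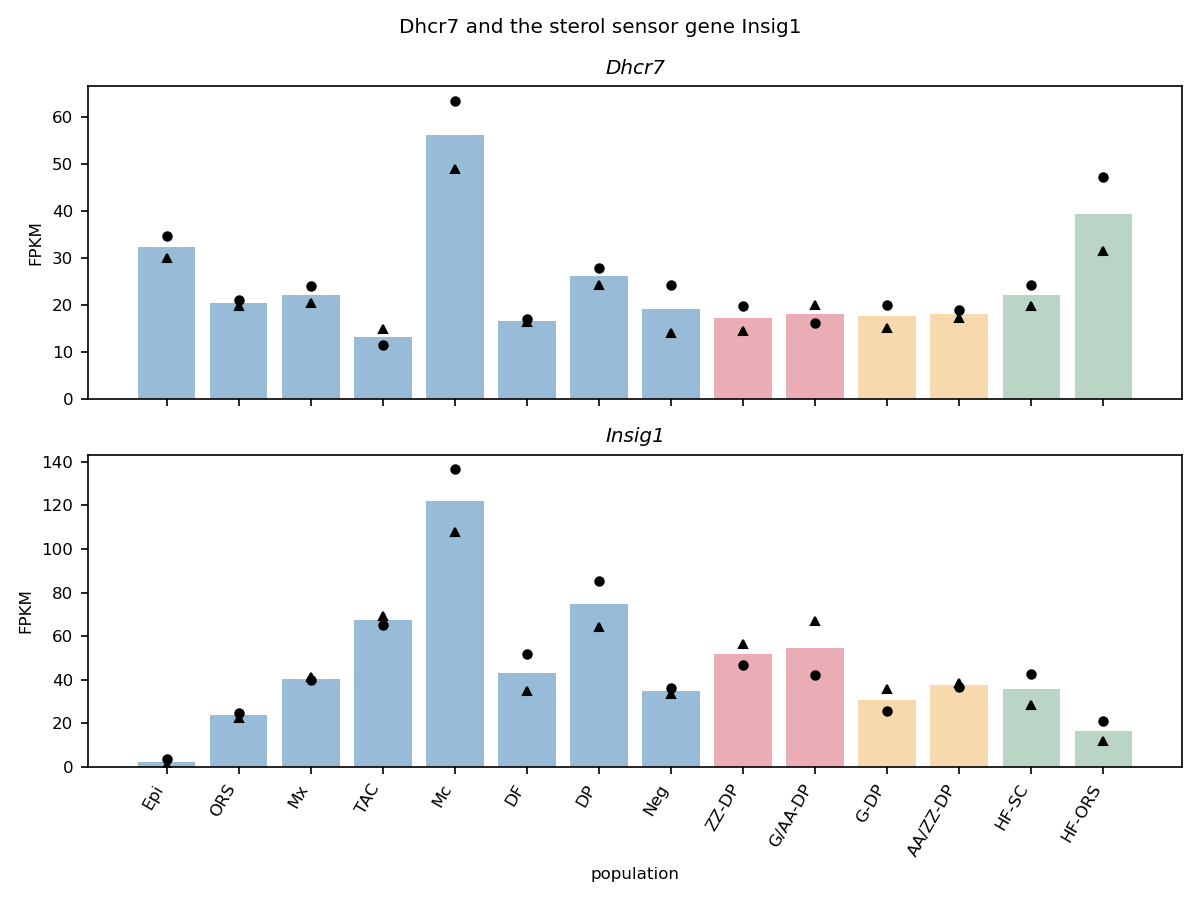
FPKM (vertical axes, from 0) of Dhcr7 and Insig1 in the 14 populations (horizontal axis); bars are means of 2 libraries, circles replicate 1 and triangles replicate 2, with bars in blue for the K14-H2BGFP line, red for Sox2-GFP, yellow for Crabp1-GFP and green for K14-RFP Sox9-GFP. Dhcr7 is higher in Epi and HF-ORS than in ORS and HF-SC, and Insig1 is lowest in Epi and highest in Mc.

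Stem cell precursors of the bulge were compared with the other K14-RFPHi/ITGA6Hi cells. Limma called 0 of 7 genes, where 4.4% of all genes were called, and 1 had an unadjusted p under 0.05. That was Dhcr7, at 24.2 and 19.8 FPKM in HF-SC and 47.1 and 31.4 in HF-ORS, without overlap (-0.79 ± 0.28, adjusted p = 0.123). Sqle (0.51 ± 0.35), Lss (0.49 ± 0.42), Cyp51 (0.43 ± 0.29), Fdps (0.29 ± 0.37), Hmgcs1 (0.05 ± 0.27) and Idi1 (-0.19 ± 0.37) did not reach it. Of the other 12 enzymes Sc4mol rose, at 11.3 and 22.4 FPKM in HF-SC and 8.59 and 6.03 in HF-ORS (1.05 ± 0.28, adjusted p = 0.0368). Its call was lost without HF-SC replicate 2 (0.409), HF-ORS replicate 1 (0.0607) or HF-ORS replicate 2 (0.208), with a pseudocount of 5 (0.0565) and with quantile normalization (0.0515). Insig1 did not pass (1.07 ± 0.34, adjusted p = 0.0831). HF-SC had 376 to 485 FPKM of suprabasal genes against 1796 to 2874 in HF-ORS, and the stress genes summed to 5567 to 6971 and 4278 to 5675; their part was not tested.

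The papillae of the hair types were compared within each reporter line. G/AA-DP and ZZ-DP differed in 0 of 7 genes by limma, with 0 at an unadjusted p under 0.05, and 0.00664% of all genes were called. The largest of the 7 values was -0.19 ± 0.37 for Idi1, at 20.9 and 43.5 FPKM against 29.2 and 40.9, and the libraries overlapped. Sqle (0.06 ± 0.35), Fdps (0.15 ± 0.37), Cyp51 (0.13 ± 0.29), Lss (0.12 ± 0.42), Dhcr7 (0.07 ± 0.28) and Hmgcs1 (0.03 ± 0.27) were smaller. The library labelled replicate 1 in each group went against its gate for Sox2, and whether these 2 libraries carry the right labels cannot be told from the files. With either or both left out the count was also 0 (leaving out both was added after seeing the data, and leaves 1 library in each group, assumed to vary like the others). The melanocyte genes differed between the ZZ-DP libraries as given above, and their part was not tested. AA/ZZ-DP and G-DP likewise differed in 0 of 7, with 0 at an unadjusted p under 0.05, and 0.505% of all genes were called. The largest value was for Lss, at 14.5 and 9.26 FPKM against 19.0 and 24.3, without overlap (-0.83 ± 0.42, adjusted p = 0.627). The others were -0.42 ± 0.37 for Fdps, -0.28 ± 0.35 for Sqle, -0.27 ± 0.37 for Idi1, -0.08 ± 0.27 for Hmgcs1, 0.05 ± 0.28 for Dhcr7 and 0.17 ± 0.29 for Cyp51. The 6 melanocyte genes, with 6 of 6 negative and 3 called, were at 48.4 to 63.6 FPKM in sum in AA/ZZ-DP against 844 to 965 in G-DP, and their part in these values was not tested. None of the other 12 enzymes was called by limma in either, with 0 and 2 at an unadjusted p under 0.05, and without G-DP replicate 1 the count in the Crabp1-GFP line was 1 (Ebp). The 95% intervals of the 7 log2 changes ran from -0.96 to 1.003 over the 2 Sox2-GFP groups. Over the 2 Crabp1-GFP groups they ran from -1.71 (Lss) to 0.77. Differences within each gene's own interval are not excluded, so the papillae are not shown to be alike.

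Lastly, the 4 epithelial populations of the K14-H2BGFP line (Epi, ORS, Mx and TAC) were set against its 2 dermal ones (DF and DP), each population weighing the same. Limma called 0 of 7 genes, although 26% of all tested genes were called. Cyp51 passed the p threshold below the size threshold, at 32.3 ± 14.1 FPKM over 8 epithelial libraries and 49.2 ± 16.1 over 4 dermal ones (-0.68 ± 0.17, adjusted p = 0.00349). The ranges overlapped, since TAC and Mx lay within the dermal range. Fdps (0.48 ± 0.23), Lss (0.34 ± 0.26), Hmgcs1 (0.29 ± 0.16), Idi1 (0.08 ± 0.23), Dhcr7 (0.01 ± 0.17) and Sqle (-0.25 ± 0.22) did not pass. None of the other 12 enzymes was called (4 at an unadjusted p under 0.05), although Lbr (0.85 ± 0.15), Mvk (0.85 ± 0.31) and Sc4mol (-0.51 ± 0.17) passed the p threshold below the size threshold, and Mvk was called without DF replicate 1. Insig1 was lower in the epithelium (-1.39 ± 0.21, adjusted p = 1.92e-05), where it ran from 3.72 and 1.11 FPKM in Epi to 65.1 and 69.3 in TAC. Of the 7 cholesterol genes, 5 had a positive log2 change. All 12 proliferation genes were called higher in the epithelium, and their part in these values was not tested.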

How the data were processed

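RNA of 6 ng per sample from sorted cells was amplified and sequenced, with RNA integrity numbers of at least 8.8, per the labels' protocols. The authors deposited FPKM values per gene, normalized for gene length and sequenced fragments; TopHat2 2.0.3, Bowtie2, Cufflinks 2.1.1 and mm10 stand in the submitters' processing notes, and the counting of strand is not given in the sources used here. Of 23235 rows, 220 exact repeats were dropped. From there, the 15052 genes that reached 1 FPKM in 2 or more libraries were fitted with limma 3.58.1 (R 4.3.3) on log2(FPKM + 1), with 1 mean for each of the 14 populations, all 28 libraries sharing the spread (14 residual degrees of freedom, prior 5.7), empirical Bayes moderation with a trend, and Benjamini-Hochberg adjustment within each comparison. A fold change on the log2(FPKM + 1) scale understates the change of genes with low values. Read depth is unknown: in a check for whole-read steps only 23% of value triples closed within 0.06, so no count test was run. Replicates follow the sample titles.

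The 7 genes, the pathway and marker lists and the comparisons were chosen with earlier results of these data known, and Mx minus Epi was added after the levels were seen. Named genes are the 7 genes, listed pathway genes that were called, Srebf1, Srebf2 and Insig1, marker genes that move with a result (Krt1, Shh and Sox2 were picked after their values were seen), and the 10 genes most like the 7 with at least 5 FPKM in some population, leaving out predicted names. Some listed genes are not reported here and count in no list or ranking. Alternatives were pseudocounts of 0.1 and 5, no filter, a filter of 5 FPKM, quantile normalization, a replicate block, and leaving out each library; leaving out replicate 1 of both Sox2-GFP populations together was added after seeing the data. Tested on simulated data for ORS minus Epi (15052 genes), the fit recovered 149 of 200 genes changed by 2 on the log2 scale, with 10 false calls. The simulated noise was independent between libraries, and only well-expressed genes were changed, by more than the size threshold. These figures may therefore not hold for the real libraries or for smaller changes. Gene positions and promoters are from RefSeq (GRCm38.p6).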

Additional observations from a re-analysis of the deposited data

How the results depend on the processing

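Of 763 values of the log2 change of the 7 genes under the alternatives, 748 kept their side of the threshold, 13 lost a call and 2 gained one; 44 turned sign, none of them called before or after. For the other listed genes named, 807 of 877 kept theirs, 69 lost a call, 1 gained one and 23 turned sign. Leaving out 1 library at a time moved the number of the 7 genes called in ORS minus Epi from 3 to between 0 and 1, and in Mx minus Epi from 5 to between 3 and 5. Over the other 12 cholesterol enzymes it moved the count in ORS minus Epi from 3 to between 1 and 3, in Mx minus ORS from 1 to 0, in HF-SC minus HF-ORS from 1 to between 0 and 1, and in Mc minus DF, AA/ZZ-DP minus G-DP and epithelial minus dermal from 0 to between 0 and 1. The count of those enzymes was 1 in Mc minus DF with a pseudocount of 0.1 and 0 in HF-SC minus HF-ORS with a pseudocount of 5 or with quantile normalization; the cause was not tested. With a library left out, its population rests on 1 sample that is assumed to vary like the others.

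Same-numbered libraries deviated together in 27 of 28 pairs of K14-H2BGFP populations (r over 0.1), but not in the K14-RFP Sox9-GFP pair (0.07). Libraries of different lines did so in 34 of 60 pairs, with r from 0.04 to 0.29. The labels do not say what same-numbered libraries share, so the main fit does not pair the samples by number. With a replicate block within each line, 1 of the 7 genes was called in Mx minus ORS (Fdps, adjusted p = 0.0176) and Sqle was called as well in ORS minus Epi (0.00167). Insig1 in HF-SC minus HF-ORS (0.0134) was also called with the block, and no other call on a named gene changed with it.

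Counts over all genes moved by more than 1.5 times in places. With the block, TAC minus Mx had 336 genes called against 191 and HF-SC minus HF-ORS 1125 against 662. A pseudocount of 5 gave 668 against 1007 in DP minus DF, 1695 against 2738 in Mc minus DF and 1907 against 3917 in epithelial minus dermal. A pseudocount of 0.1 gave 28 and no filter 47 against 76 in AA/ZZ-DP minus G-DP, quantile normalization 121 against 191 in TAC minus Mx, and no filter 4 against 1 in G/AA-DP minus ZZ-DP, where leaving out ZZ-DP replicate 1 gave 17, G/AA-DP replicate 2 gave 5, and replicate 1 of both gave 8. Leaving out a library gave as few as 942 of 1480 in ORS minus Epi, 192 of 577 in Mx minus ORS, 51 of 191 in TAC minus Mx, 522 of 1007 in DP minus DF, 312 of 662 in HF-SC minus HF-ORS and 1046 of 1694 in Mx minus Epi, and 13 to 274 against 76 in AA/ZZ-DP minus G-DP. Depth is unknown, so no detection limit is given.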
